A study of Mus musculus with 21 samples.

Results

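Apolipoproteins are the protein part of the particles that carry lipid in blood, and 7 of their genes were followed here by symbol in a deposited table of RNA levels in mouse liver: Apoc2, Apoa5, Apoa4, Apom, Apob, Apof and Apoe. Of these 7 genes, 6 had a row among the 22520 genes of the table, and Apoe is not analysed here. The 6 genes were chosen from results in this same table, so their levels and differences are given as a description and carry no p-value. Where a count of the 6 past a threshold is given, it stands beside the share of all genes and is no test of them. Each of the 6 was above 1 FPKM in all 12 columns. FPKM stands for fragments per kilobase of transcript after scaling for library size, so levels can be compared between genes.

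Hepatocytes load triglyceride onto apolipoprotein B and secrete it as very low density lipoprotein, while smaller apolipoproteins move between that particle and high density lipoprotein. In capillaries, lipoprotein lipase releases fatty acids from the particles, with apolipoprotein C-II as its required cofactor and apolipoprotein A-V as a factor that raises its activity. Apolipoprotein M, a lipocalin, binds the signalling lipid sphingosine 1-phosphate and carries it mainly on high density lipoprotein. In mice Apoa4 is known to be switched on strongly in fatty or fasted liver.

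The livers came from mice of a mixed 129SV::FVB/N::C57BL/6 background and 4 genotypes. WT mice carried floxed Ezh2 (Ezh2fl/fl) and no Cre, E1KO mice lacked Ezh1 (Ezh1-/-), E2KO mice were Ezh2fl/fl with Alb-Cre, and DKO mice were Ezh1-/- and Ezh2fl/fl with Alb-Cre. Ezh1 and Ezh2 are the methyltransferases of PRC2, a Polycomb complex that marks histone H3 at lysine K27 on silent genes. Alb-Cre is driven by the albumin promoter and acts in hepatocytes, so the other liver cells of E2KO and DKO mice kept Ezh2, whereas Ezh1 was absent from the whole animal. Each genotype was taken untreated at 2 months, untreated at 8 months, and after CCl4 at 3 months (carbon tetrachloride, a toxin that hepatocytes activate). The CCl4 dose was 2 ml/kg into the peritoneum, with 2 injections a week for 2 weeks, and livers were taken 24 h after the last one. With no untreated column at 3 months, CCl4 and the added month of age cannot be told apart.

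The table held 1 column per genotype and condition, 12 in all, although the sample titles name 3 replicates per group and 2 at 8 months. No source used here says how they were combined, so there is no spread between animals and the depth is unknown. Column totals were 531761 to 674119 FPKM, of which the 6 genes held 0.313% to 1.68%. Ezh1 was at 2.94% of WT in the DKO column at 2 months, at 2.94% at 8 months and at 13.2% with CCl4. In the columns labelled E1KO it was at 2.94%, 43.1% and 9.76% in the same order. Ezh2 was at 75.7%, 86.8% and 69.0% of WT in the E2KO columns and at 66.7%, 139.6% and 44.2% in the DKO columns. These values cover the whole gene and the whole liver, so they cannot show the deleted exons in hepatocytes. The 8-month column labelled E1KO stood apart, with 500.3 FPKM summed over 14 skeletal muscle genes against 1.29 to 2.03 FPKM in the other 11, so its values are read with that in mind. The 18 hepatocyte markers with a row summed to 16411 to 28645 FPKM in all columns.

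The promoters of 3 of the genes are shown because Apoc2 and Apom differed most steadily between DKO and WT and Apoa4 had the widest range of levels over the 12 columns. They are RefSeq sequences on GRCm38.p6 (the table was made on mm9), each written 5′ to 3′ on the gene's own strand and ending at the base before its start. Capitals mark matches to the motifs searched. The Apoc2 stretch is chr7:19677942-19678083 on the minus strand, cut to 142 bases where it meets the locus of the upstream gene Apoc4. The Apoa4 stretch is chr9:46240594-46240843 on the plus strand and the Apom stretch chr17:35131802-35132051 on the minus strand, both 250 bases.
Apoc2: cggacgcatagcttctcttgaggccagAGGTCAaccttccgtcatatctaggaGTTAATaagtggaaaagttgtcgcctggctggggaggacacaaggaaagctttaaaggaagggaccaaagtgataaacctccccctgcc
Apoa4: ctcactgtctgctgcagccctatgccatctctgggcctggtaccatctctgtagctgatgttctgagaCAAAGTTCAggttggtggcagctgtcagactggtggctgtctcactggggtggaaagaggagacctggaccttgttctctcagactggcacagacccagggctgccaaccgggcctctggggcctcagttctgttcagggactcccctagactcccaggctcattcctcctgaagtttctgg
Apom: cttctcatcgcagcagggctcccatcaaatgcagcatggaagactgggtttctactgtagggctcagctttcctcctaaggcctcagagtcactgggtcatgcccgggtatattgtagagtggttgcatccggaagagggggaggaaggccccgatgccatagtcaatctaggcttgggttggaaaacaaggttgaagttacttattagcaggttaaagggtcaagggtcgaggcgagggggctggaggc

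The 6 motifs searched, on both strands, were AGGTCA (the core of many nuclear receptor sites), CAAAGNNCA (a form of HNF4 site), CAAGGNCA (a form of orphan receptor site, which holds AGGTCA when N is T), CACGTG (the E-box), GTTAAT and TATAAA. The Apoc2 stretch held AGGTCA, starting 115 bases before the start, and GTTAAT, 89 bases before it. Among 32851 mouse promoters, 8.12% held AGGTCA and 3.50% held GTTAAT in a stretch of 142 bases. The Apoa4 stretch held CAAAGNNCA 182 bases before the start, a motif found in 5.49% of promoters over 250 bases. The Apom stretch held none of the 6, which says no more than that these letters are not in that window. Of the other members, Apoa5 held CACGTG (6.02% of promoters over 250 bases) and TATAAA (12.4%), and Apob held CAAAGNNCA and TATAAA.

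In WT liver at 2 months the order of levels from high to low was Apoa5, Apof, Apoc2, Apob, Apom and Apoa4, from 610.9 down to 192.98 FPKM. At 8 months Apoc2 stood above Apof in WT, and Apom was lowest. With CCl4 the WT order was Apoa4, Apoc2, Apom, Apof, Apoa5 and Apob. Apoa4 thus went from the lowest of the 6 at 2 months to the highest with CCl4, while Apoa5 went from the highest to the last but one. In DKO liver Apoc2 was the highest of the 6 in all 3 conditions and Apom the lowest in all 3. With 1 column per group, neighbours in these orders cannot be separated from the spread between animals.

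**Figure D1:**
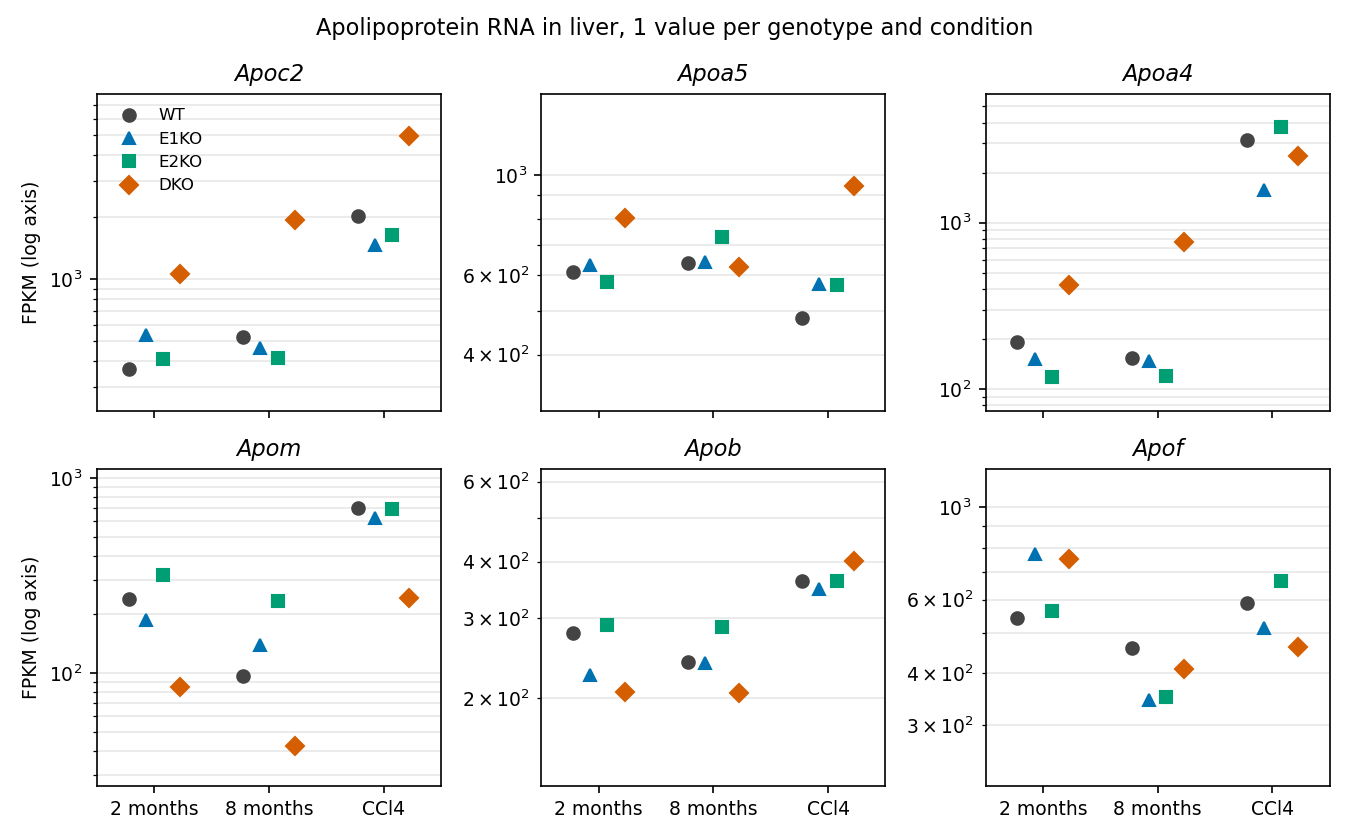
RNA level in FPKM (log axis, scaled to each gene) of the 6 apolipoprotein genes with a row, by condition, with 1 point per genotype and no replicates. The DKO points of Apoc2 lie above the other genotypes and those of Apom below them in every condition, while the Apoa4 points with CCl4 lie between 1567.28 and 3738.69 FPKM.

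Apoc2, the lipase cofactor, was 2.46-fold to 3.72-fold higher in DKO than in WT liver, in all 3 conditions. At 2 months its level was 367.8 FPKM in WT, 534.59 in E1KO, 411.27 in E2KO and 1064.07 in DKO. At 8 months the values in the same order were 521.05, 461.61, 413.31 and 1937.25 FPKM. With CCl4 they were 2026.85, 1469.28, 1629.79 and 4983.47 FPKM. The DKO column lay above the range of the other 3 genotypes each time, and those 3 stayed within 1.45-fold of each other. The DKO to WT difference was 1.53, 1.89 and 1.30 on the log2(FPKM + 1) scale in that order of conditions, and 1.57 ± 0.22 (SE) in a fit with additive genotype and condition terms over the 12 columns (limma). By rank of size on that scale, which understates changes of low genes, the difference was the 172nd, 157th and 367th among 11394 tested genes. In these bulk livers, more RNA per cell and more cells of a kind that expresses a gene cannot be told apart.

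Apoc2 RNA also changed relative to that of Apoc3, whose protein inhibits lipoprotein lipase. Apoc3 itself differed between DKO and WT by 0.65, -0.35 and 0.02 on the log2 scale in the 3 conditions. In WT, E1KO and E2KO the Apoc2 level was 4.72% to 5.52% of the Apoc3 level at 2 months, and in DKO it was 10.2%. At 8 months the range was 4.95% to 6.69% against 23.5% in DKO. With CCl4 it was 34.0% to 45.6% against 110.3% in DKO. DKO liver with CCl4 was the one column of the 12 in which Apoc2 RNA exceeded Apoc3 RNA. These ratios were chosen after the values were seen.

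Apoa5, which raises lipase activity by binding its inhibitor complex, was among the steadiest of the 6 genes. Its 12 values ran from 481.58 FPKM in WT with CCl4 to 945.45 FPKM in DKO with CCl4. At 2 months it was at 610.9 FPKM in WT, 631.22 in E1KO, 580.66 in E2KO and 802.0 in DKO. At 8 months WT, E1KO, E2KO and DKO were at 637.29, 640.49, 728.78 and 624.45 FPKM, so DKO was then the lowest. With CCl4 they were at 481.58, 571.95, 571.4 and 945.45 FPKM, with DKO above the other 3. The DKO to WT differences were 0.39, -0.03 and 0.97 on the log2 scale and 0.44 ± 0.19 (SE) in the additive fit.

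Apoa4, a component of triglyceride-rich particles, was higher in untreated DKO than in untreated WT liver at both ages, and not with CCl4. At 2 months it was at 192.98 FPKM in WT, 150.53 in E1KO, 118.74 in E2KO and 423.49 in DKO. At 8 months the values were 154.14, 147.56, 119.48 and 766.45 FPKM in the same order. The DKO column stood 2.19-fold above WT at 2 months and 4.97-fold at 8 months, and above all 3 other genotypes both times. With CCl4 the values were 3149.53, 1567.28, 3738.69 and 2524.44 FPKM, so DKO lay inside the range of the others and at 0.802 of WT. The log2 differences of 1.13, 2.31 and -0.32 gave 1.04 ± 0.51 (SE) in the additive fit, the largest error of the 6 genes. Fitted without the CCl4 columns, the DKO difference of Apoa4 was 1.72, and without the 8-month columns it was 0.41.

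Enterocytes are another strong source of Apoa4 in mice, so their markers were read beside it. Of 10 enterocyte markers, Sis and Cdx1 were at 0 in all 12 columns, and Lct, Cdx2 and Alpi were at 0.01 FPKM or less in every column. Fabp6, which codes for the ileal bile acid binding protein, was at 56.32 FPKM in DKO at 8 months and at 0.63 FPKM or less in the other 11 columns. Vil1, Mep1a and Cdhr2 (genes of the microvillus border) were low but highest in DKO in every condition. At 8 months they were at 1.21, 1.72 and 1.05 FPKM in DKO, against at most 0.12, 0.02 and 0.02 FPKM in the other genotypes. With CCl4 they were at 0.87, 2.45 and 1.6 FPKM in DKO, against at most 0.19, 0.08 and 0.47 FPKM. Summed over the list, DKO was at 32.5 FPKM at 2 months (31.1 to 33.6 in the other genotypes), at 92.1 at 8 months (29.8 to 34.8) and at 55.7 with CCl4 (37.4 to 43.9). Anpep, at 29.46 to 50.15 FPKM, made up most of that sum in every column but the 8-month DKO one. The part of these genes, or of cells that express them, in the Apoa4 level was not tested.

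Apom, the sphingosine 1-phosphate carrier, was lower in DKO than in every other genotype in all 3 conditions. At 2 months it was at 239.71 FPKM in WT, 187.99 in E1KO, 318.93 in E2KO and 85.14 in DKO. At 8 months the values were 96.36, 139.48, 234.52 and 42.45 FPKM in the same order. With CCl4 they were 696.9, 620.85, 695.75 and 241.16 FPKM. The DKO level was 0.355, 0.441 and 0.346 of the WT level in the 3 conditions. The levels of a genotype moved more with condition than that. The DKO value with CCl4 was thus level with WT at 2 months and above WT at 8 months. On the log2 scale the differences were -1.48, -1.16 and -1.53, and the additive fit gave -1.39 ± 0.22 (SE). The E2KO column was above WT at 2 months and at 8 months and level with it with CCl4, with a fitted difference of 0.56 ± 0.22 (SE). WT at 8 months was at 0.402 of its 2-month level, the lowest such ratio of the 4 genotypes.

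Apob, the structural protein of very low density lipoprotein, stayed within a narrow band. At 2 months it was at 277.89 FPKM in WT, 225.11 in E1KO, 290.21 in E2KO and 206.44 in DKO, and at 8 months at 240.84, 239.73, 287.07 and 205.31 FPKM. DKO was the lowest column both times, at 0.711 and 0.715 of the highest other column. With CCl4 the values were 363.35, 348.08, 362.91 and 400.82 FPKM, and DKO was then the highest. The fitted DKO difference of Apob was -0.17 ± 0.14 (SE).

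Apof codes for a minor plasma apolipoprotein known in humans as lipid transfer inhibitor protein. It was at 543.04 FPKM in WT, 773.02 in E1KO, 562.41 in E2KO and 751.13 in DKO at 2 months. The values were 458.94, 344.0, 350.15 and 409.48 FPKM at 8 months and 588.31, 512.59, 665.93 and 461.53 FPKM with CCl4. DKO lay inside the range of the other genotypes at both untreated ages and below it with CCl4, and the fitted difference was -0.02 ± 0.22 (SE). The locus of Apof overlaps that of Stat2 in RefSeq, and no source used here says how shared reads were assigned.

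Counts over the 6 genes were read against all 11394 tested genes. The additive fit put 2 of the 6 past an adjusted p of 0.05 (limma, Benjamini-Hochberg over all tested genes) in DKO against WT, Apoc2 higher and Apom lower, where 2.62% of all genes were past it. These were among the results from which the genes were chosen, so the count supports nothing. None of the 6 was past it for E1KO (0.0176% of all genes, with 640 genes at an unadjusted p under 0.05) or E2KO (0% of all genes, with 155 at an unadjusted p under 0.05). A difference of at least 1 on the log2 scale within a condition was seen in 3 of the 6 for DKO at 2 months (3.48% of all genes), in 3 at 8 months (4.08%) and in 2 with CCl4 (5.41%). For E1KO it was seen in 0 of the 6 at 2 months (2.23% of all genes), 0 at 8 months (1.94%) and 1 with CCl4, Apoa4 at -1.01 (2.03%). For E2KO it was 0 at 2 months (1.21%), 1 at 8 months, Apom at 1.27 (2.8%), and 0 with CCl4 (1%). Apoc2 was among the 5.94% of genes with DKO above the other 3 genotypes in every condition, and Apom among the 8.63% with DKO below them.

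**Figure D2:**
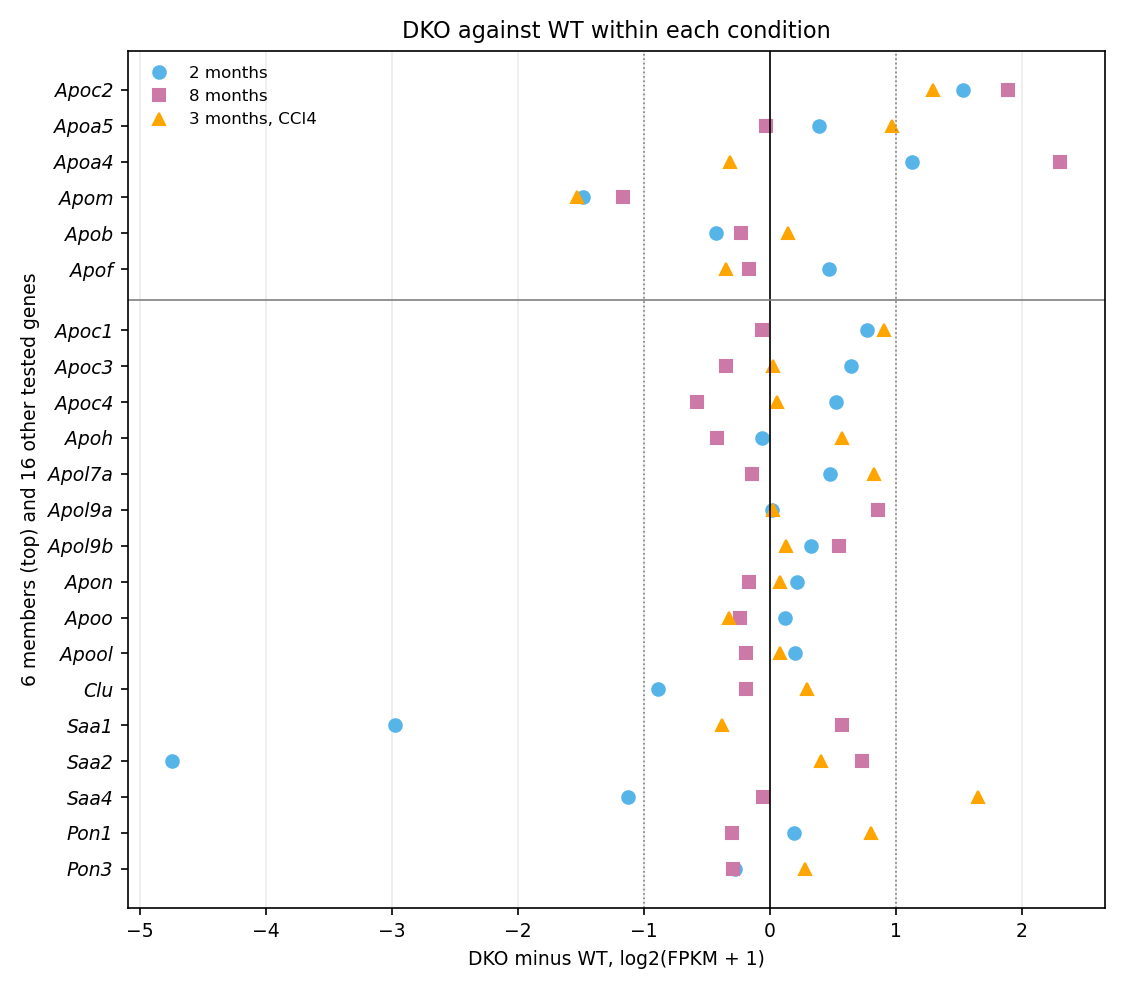
DKO minus WT on the log2(FPKM + 1) scale in each condition for the 6 genes (top) and the 16 other apolipoprotein and related genes tested (bottom), 1 difference per symbol and no error bars since there is 1 column per group; dotted lines mark a difference of 1. Apoc2 lies to the right of 1 and Apom to the left of -1 in all 3 conditions.

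Markers of other liver cells differed with genotype as well. Summed over 21 macrophage markers, DKO was at 339.0 FPKM at 2 months (222.5 to 381.9 in the other genotypes), at 520.1 at 8 months (157.8 to 182.8) and at 1528 with CCl4 (869.5 to 1671). The 13 stellate cell markers summed to 231.5 FPKM in DKO at 2 months (140.1 to 197.9 in the others), 280.1 at 8 months (154.1 to 185.4) and 389.1 with CCl4 (330.2 to 426.5). Single genes weigh heavily in these sums: in DKO at 8 months Spp1, a macrophage marker, was at 290.01 FPKM and Dcn, a stellate marker, at 162.13 FPKM. With CCl4, Acta2 and Tagln were lower in DKO (6.98 and 19.08 FPKM) than in the others (at least 31.39 and 56.32 FPKM). Dcn and Hand2 were higher in DKO there, at 176.16 and 6.36 FPKM against at most 111.31 and 3.09 FPKM. Hepatocyte markers summed to 22517, 16411 and 28645 FPKM in DKO, against 24303 to 28316, 17932 to 21490 and 18560 to 21991 FPKM in the other genotypes. The fibrinogen genes Fga, Fgb and Fgg weigh heavily in that sum and were at 3042.84, 4986.6 and 4303.16 FPKM in the 2-month WT column, against at most 1747.43, 3227.26 and 2622.07 FPKM in the other 2-month columns. Over the 18 hepatocyte markers the fitted DKO difference was above 0 for 9, with a median of 0.01. It was above 0 for 21 of 21 macrophage markers (median 0.40) and 11 of 13 stellate cell markers (median 0.43). The E1KO difference was above 0 for as many of each, with medians of 0.33 and 0.23. No macrophage marker passed in DKO, and 2 stellate cell markers did, 15.4% against 2.62% of all genes (limma, adjusted p under 0.05). These were Hand2 (0.91 ± 0.15, SE, adjusted p = 0.0222 by limma) and Dcn (0.80 ± 0.17, SE, adjusted p = 0.0496 by limma). Each of these fitted differences is an average over the 3 conditions. Taken against the other 3 genotypes, the DKO difference was higher with CCl4 than at 2 months for 18 of 18 hepatocyte markers (median 0.62). It was higher for 12 of 21 macrophage markers (median 0.13) and 5 of 13 stellate cell markers (median -0.64). Over all tested genes the median was 0.01. Apom was lower and Apoc2 higher in DKO in all 3 conditions; the part of these cell markers in either difference was not tested.

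Averaged over the 3 conditions, the E1KO and E2KO columns lay close to WT for most of the 6 genes. Single conditions differed more. On the log2 scale E1KO minus WT was 0.54, -0.17 and -0.46 for Apoc2 and 0.51, -0.41 and -0.20 for Apof. E2KO minus WT was -0.70, -0.36 and 0.25 for Apoa4. In the additive fit the E1KO difference ran from -0.48 ± 0.51 (SE) for Apoa4 to 0.10 ± 0.19 (SE) for Apoa5. Without the 8-month column labelled E1KO the same 2 differences were -0.49 and 0.08, and that of Apom went from 0.00 to -0.10. The E2KO difference ran from -0.27 ± 0.51 (SE) for Apoa4 to the 0.56 of Apom. Apart from Apom in E2KO, each fitted difference was smaller than its own SE, which does not show that levels were equal.

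Between the untreated ages Apom and Apof differed most. The additive fit gave -0.79 ± 0.19 (SE) for Apom and -0.74 ± 0.19 (SE) for Apof at 8 months against 2 months, and both were lower in 4 of 4 genotypes. Apof at 8 months was at 0.845 of its 2-month level in WT, 0.445 in the column labelled E1KO, 0.623 in E2KO and 0.545 in DKO. Without that E1KO column the fitted difference of Apof was -0.66. Apoc2 was 1.82-fold higher in DKO, 1.42-fold higher in WT and level or lower in the others, for a fitted 0.29 ± 0.19 (SE). Apoa4 was 1.81-fold higher in DKO and level or lower in the others, with a fitted 0.13 ± 0.44 (SE) that became -0.31 without the 8-month DKO column. Apoa5 (0.01 ± 0.17, SE) and Apob (-0.03 ± 0.12, SE) were level. None of the 6 was past an adjusted p of 0.05 here, and 4.29% of all genes were (limma; 489 genes, or 127 without the 8-month column labelled E1KO).

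At 3 months with CCl4, 4 of the 6 genes were above their 2-month level in every genotype. Apoa4 was 16.3-fold higher in WT, 10.4-fold in E1KO, 31.5-fold in E2KO and 5.96-fold in DKO. Apoc2 was 5.51-fold, 2.75-fold, 3.96-fold and 4.68-fold higher in the same order. Apom was 2.91-fold, 3.30-fold, 2.18-fold and 2.83-fold higher, so the DKO ratio lay inside the range of the others and its level stayed below theirs. Apob was 1.31-fold, 1.55-fold, 1.25-fold and 1.94-fold higher. Fitted differences were 3.73 ± 0.44 (SE) for Apoa4, 2.03 ± 0.19 for Apoc2, 1.47 ± 0.19 for Apom and 0.57 ± 0.12 for Apob. Apoa5 (-0.07 ± 0.17, SE) and Apof (-0.23 ± 0.19, SE) were each higher in some genotypes and lower in others. The additive fit put 4 of the 6 past an adjusted p of 0.05, where 57.9% of all genes were past it (limma), so a share of this size is close to the background.

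DKO had the smallest ratio of Apoa4 with CCl4 to 2 months, and the highest level of Apoa4 at 2 months. In DKO its level relative to Apoa5, its neighbour on the chromosome, was 52.8% at 2 months and 267.0% with CCl4, against 31.6% and 654.0% in WT, 23.8% and 274.0% in E1KO, and 20.4% and 654.3% in E2KO. With CCl4 the ratio in DKO was thus close to that in E1KO, but both genes were higher in DKO. Apoa5 was then at 945.45 FPKM in DKO and 571.95 in E1KO, and Apoa4 at 2524.44 and 1567.28 FPKM. The DKO level of Apoa4 with CCl4 lay between those of E1KO and WT. Macrophage markers were 869.5 FPKM or more with CCl4 in every genotype and 381.9 FPKM or less at 2 months, and their part in these levels was not tested.

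**Figure D3:**
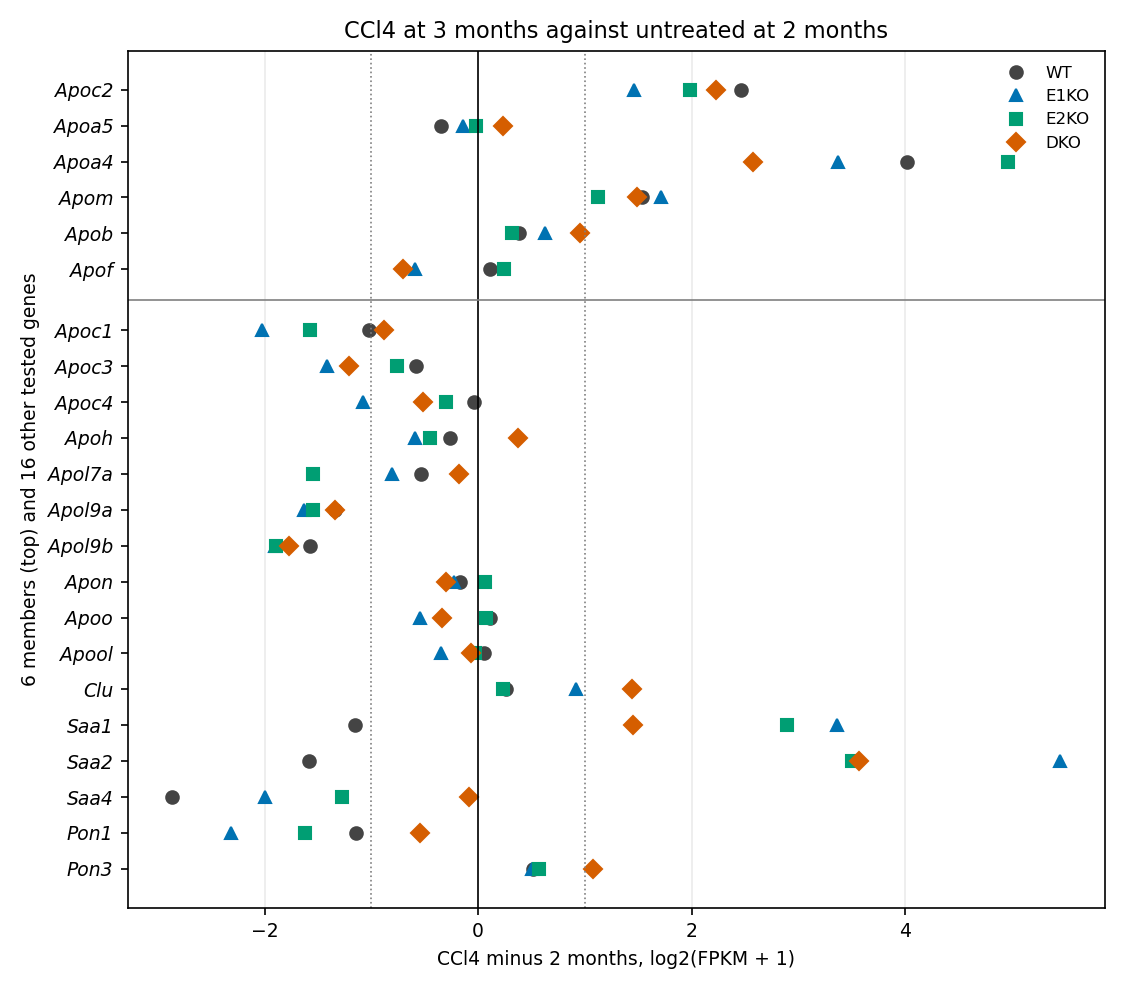
Level with CCl4 at 3 months minus the untreated level at 2 months on the log2(FPKM + 1) scale, by genotype, for the 6 genes (top) and 16 other apolipoprotein and related genes (bottom); 1 difference per symbol, dotted lines at a difference of 1. All 4 genotypes of Apoc2, Apoa4 and Apom lie to the right of 1, while Apoc1, Apoc3, Apol9a and Apol9b lie to the left of 0.

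Genes next to Apoc2 and Apom had smaller fitted DKO differences, and none passed the threshold of the additive fit. In RefSeq order Apoc2 lies on chromosome 7 between Clptm1 and Apoc4, with Apoc1 beyond. DKO minus WT on the log2 scale, with the 3 conditions in the same order as above, was 0.53, -0.58 and 0.06 for Apoc4, 0.77, -0.06 and 0.91 for Apoc1, and -0.15, -0.16 and 0 for Clptm1. Apom lies on chromosome 17 between D17H6S53E and Bag6, a chaperone gene, for which the differences were -0.14, -0.02 and 0.12, and 0.12, 0.10 and -0.09. On chromosome 9, Apoc3 on one side of Apoa4 gave 0.65, -0.35 and 0.02 and Apoa5 on the other the values given above. At 2 months Apoc4, Apoc1 and Apoc3 were also above WT in E1KO, by 0.85, 0.72 and 0.76. In E2KO they were above WT by 0.39, 0.51 and 0.28. In the additive fit the adjusted p of the DKO difference was 0.999 for Apoc4, 0.339 for Apoc1, 0.597 for Clptm1, 0.959 for D17H6S53E, 0.816 for Bag6 and 0.853 for Apoc3 (limma). The order of genes is that of RefSeq on GRCm38.p6, and the neighbours were read after the values of Apoc2 and Apom were known. In RefSeq the locus Gm44805, which has no row, spans Apoc2 and Apoc4, and no source used here says how reads shared there were assigned.

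**Figure D4:**
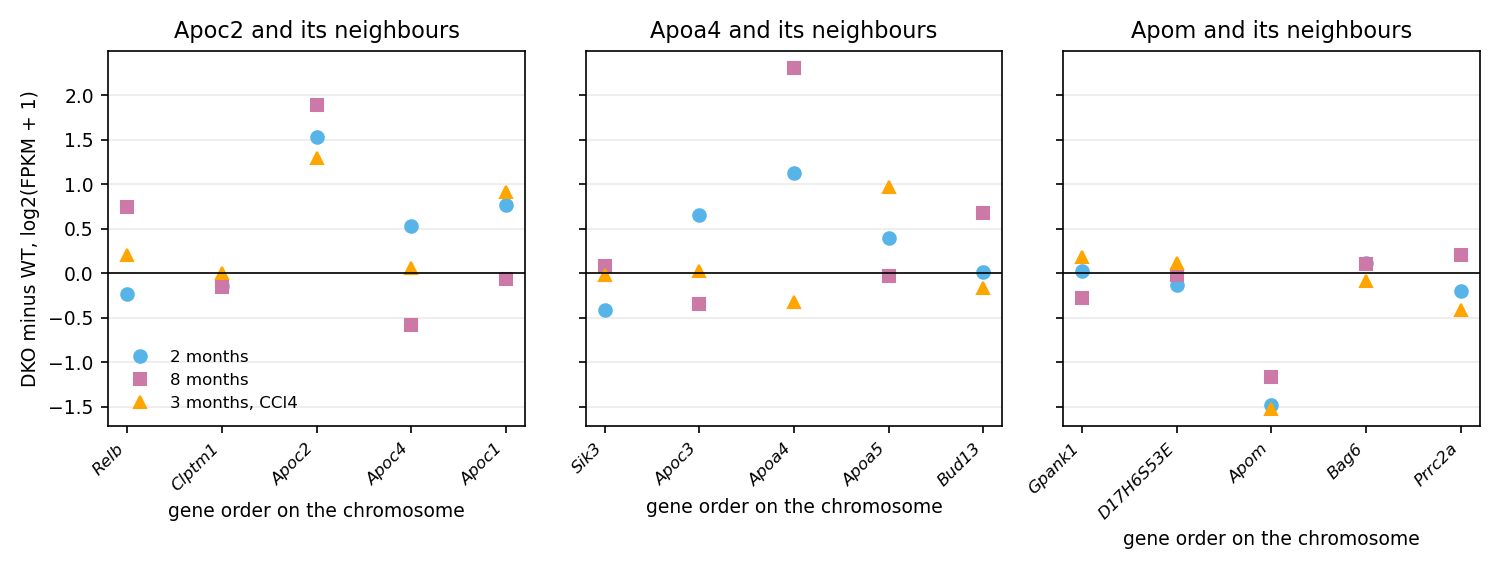
DKO minus WT on the log2(FPKM + 1) scale for Apoc2, Apoa4 and Apom and the 2 nearest protein-coding genes with a row on each side, in gene order, 1 point per condition. Apoc2 and Apom lie farther from 0 than their neighbours in all 3 conditions, and Apoa4 in both untreated ones. Among the closest are Apoc1 with CCl4 (0.91 against 1.30 for Apoc2) and Apoc3 at 2 months (0.65 against 1.13 for Apoa4). With 1 column per group these gaps cannot be set against the spread between animals.

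Genes whose 12 levels most resembled those of a member were found by the root mean square difference on the log2(FPKM + 1) scale, after subtracting each gene's own mean. For Apom the nearest was Enho, the gene of the secreted peptide adropin, at 0.44, with Lrg1 (0.63) and Spcs1 (0.64) after it. Enho was at 6.59, 2.65 and 7.97 FPKM in DKO in the 3 conditions, against 19.64, 6.01 and 34.38 FPKM in WT. For Apoc2 the nearest were Selm (0.25), a selenoprotein, Gpx3 (0.32), the plasma glutathione peroxidase, and Lum (0.35), a matrix proteoglycan. Selm was at 6.15, 10.61 and 27.92 FPKM in DKO against 1.57, 2.46 and 8.22 FPKM in WT. For Apoa4 they were Cd63 (0.46), a tetraspanin, Cdkn1a (0.49), the cell cycle inhibitor p21, and S100a11 (0.56), and for Apof Atp5g1 (0.14), Gm4987 (0.15) and Ier2 (0.17). Apoa5 and Apob spanned less than 1 on the log2 scale (0.97 and 0.96) and were not matched. The 12 columns share condition and genotype, and no test goes with these values.

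Of 23 other apolipoprotein and related genes listed, 21 had a row and 16 were tested; Apoa1 and Apoa2 are not analysed here. Apod, Apol6, Apol8, Apold1 and Apobr were under 1 FPKM in all columns. Apoc1 was the most abundant, at 7798 to 33602 FPKM and never below rank 4 in a column, followed by Apoc3 (4248 to 11326 FPKM), Apoc4 and Apoh. None of the 16 passed an adjusted p of 0.05 in DKO against WT (limma; none at an unadjusted p under 0.05 either), and their median difference was 0.04 against -0.05 over all tested genes. The serum amyloid genes Saa1 and Saa2, whose proteins ride on high density lipoprotein in inflammation, were high in the 2-month WT column alone among the untreated ones, at 2517.31 and 2175.1 FPKM. The other 2-month genotypes had 239.88 to 465.81 FPKM of Saa1 and 54.34 to 260.45 FPKM of Saa2. DKO minus WT for Saa1 and Saa2 was thus -2.98 and -4.74 at 2 months, as it was -3.39 and -5.30 for E1KO and -2.43 and -3.06 for E2KO. It was 0.57 and 0.73 for DKO at 8 months and -0.38 and 0.41 with CCl4. With CCl4, 9 of the 16 passed (limma, adjusted p under 0.05), or 56.2% against 57.9% of all genes. Clu (0.72) and Pon3 (0.67) rose, and Apol9b, Saa4, Apol9a, Pon1, Apoc1, Apoc3 and Apol7a fell, from -1.78 for Apol9b to -0.76 for Apol7a. Clu lost its call without the 2-month column of E1KO or DKO or the CCl4 column of E1KO, with log2 differences between 0.51 and 0.88 over the alternatives, and Apol7a without the CCl4 column of E2KO, between -0.97 and -0.53. Apoc1 (-1.37) and Apoc3 (-0.99) fell where Apoc2 was higher, in 4 of 4 genotypes each. Both calls were lost with no filter on low values, at an adjusted p of 0.228 for Apoc1 and 0.0948 for Apoc3 (limma). Apol9a and Apol9b are near-identical copies, and Saa1 and Saa2 are too, so reads may be split between them.

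The wider pathway was read from lists of lipoprotein assembly, high density lipoprotein remodelling, triglyceride clearance, receptors, sphingosine 1-phosphate signalling, transcription factors of apolipoprotein genes, and PPARA and CREB3L3 targets, which together with the other apolipoproteins gave 161 tested genes. In DKO against WT, 4 of them passed (limma, adjusted p under 0.05), 2.48% against 2.62% of all genes. Lpl, the lipase that Apoc2 activates, rose by 3.24 ± 0.39 (SE, adjusted p = 0.00834), from 7.86, 1.65 and 9.59 FPKM in WT to 90.21, 39.56 and 55.45 FPKM in DKO in the 3 conditions. Lpl and Apoc2 were thus both higher in DKO in each condition. Abcg5, a sterol exporter, rose by 0.71 ± 0.12 (SE, adjusted p = 0.0294). The liver pioneer factors Foxa1 and Foxa2 fell, by 0.78 ± 0.09 (SE, adjusted p = 0.00777) and 0.69 ± 0.14 (SE, adjusted p = 0.0478). Foxa1 was also lower in the columns labelled E1KO, at 4.89, 5.0 and 4.18 FPKM against 6.88, 8.2 and 7.28 FPKM in WT, with DKO at 4.1, 4.67 and 3.13 FPKM. So was Foxa2, at 9.85, 10.01 and 8.54 FPKM in E1KO against 13.33, 19.36 and 16.9 FPKM in WT. DKO was at 8.2, 11.95 and 9.49 FPKM of Foxa2, above E1KO at 8 months and with CCl4. Lpl was above WT in E1KO too, at 16.5, 2.56 and 25.53 FPKM, and Abcg5 was above WT in E1KO and E2KO in each condition. The call of Lpl was lost without the 2-month WT column (2.80 to 3.79 over the alternatives), that of Abcg5 without any single column but the 8-month E1KO, 8-month E2KO and CCl4 E1KO ones (0.62 to 0.82), and that of Foxa2 without any single column but the 8-month E2KO one (-0.82 to -0.59). Foxa2 passed in 3 of 21 fits, and not with either other filter or with median scaling. Leaving out single columns gave 1 to 4 pathway genes. No pathway gene passed for E1KO or E2KO, with 15 and 7 at an unadjusted p under 0.05. Of the factors known to act on apolipoprotein genes, Hnf4a (0.00 ± 0.20, SE), Creb3l3 (0.09 ± 0.09, SE) and Ppara (-0.10 ± 0.11, SE) did not pass in DKO.

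At 8 months 17 of the 161 passed (limma), 10.6% against 4.29% of all genes, 12 higher and 5 lower, and 7 of the 12 were among the 23 tested PPARA and CREB3L3 targets. Cyp4a14, a fatty acid hydroxylase, rose by 3.77, Cidea, a lipid droplet protein, by 2.50 ± 0.49 (SE) and the fatty acid transporter Cd36 by 2.67. Cd36 passed under all 18 fits run, Cyp4a14 under 11 and Cidea under 8. Without the CCl4 columns 2 of the 161 passed, and leaving out single columns gave 4 to 18. With CCl4, 91 of the 161 passed, 42 higher and 49 lower, or 56.5% against 57.9% of all genes. Mttp, which loads lipid onto apolipoprotein B, rose by 0.69 ± 0.10 (SE, adjusted p = 0.000503), and Gpihbp1, which anchors lipoprotein lipase, by 1.75 ± 0.23 (SE, adjusted p = 0.000288). Angptl4, a lipase inhibitor, fell by 0.93 ± 0.21 (SE, adjusted p = 0.00521). Sphk2, a kinase that makes sphingosine 1-phosphate, fell by 1.54 ± 0.13 (SE, adjusted p = 5.11e-05), while Apom was higher. Among the transcription factors 5 rose and 17 fell, of which Mlxipl fell furthest, by 2.77 ± 0.14 (SE, adjusted p = 1.10e-05), and Ppara fell by 0.59.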

How the data were processed

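RNA of mouse liver was measured in 12 groups. The authors deposited FPKM values, 1 column per group, and the submitters' processing notes name CASAVA, TopHat and Cufflinks on mm9; no source used here gives versions, strand use or the combining of replicates. Depth is unknown, so no counting interval is given.

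Values were taken as log2(FPKM + 1), a scale that understates changes of low genes. The 11394 genes that reached 1 FPKM in 2 or more columns were tested. limma 3.58.1 in R 4.3.3 fitted additive genotype and condition terms with a trend, two-sided, with Benjamini-Hochberg adjustment over all tested genes and 6 residual degrees of freedom. The spread is the departure from additivity, not the spread between animals, and contrasts share columns. A fit with DKO-by-condition terms had 4. On simulated data the DKO comparison recovered 86% of 100 genes changed by 1 and 95% of 100 changed by 2 (log2), among 11394 genes. The share among low genes, or where genotype and condition effects do not add, was not tested. The members and lists were chosen with earlier results of these data known. List genes named were those past the threshold for a genotype, and for age and CCl4 up to the 3 largest per list and direction, of which some are printed; Mttp, Hnf4a, Creb3l3 and Ppara were named after their values were seen. Alternatives were another pseudocount, other filters, median scaling, no trend, and leaving out columns or conditions. The 9 ChIP samples are not analysed here.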

Additional observations from a re-analysis of the deposited data

Results flagged for a closer look

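The carboxylesterase gene Ces1b, of the list for high density lipoprotein remodelling, was picked out because its DKO difference with CCl4 differed from that at 2 months. At 2 months it was at 137.25 FPKM in WT, 130.97 in E1KO, 109.91 in E2KO and 26.6 in DKO. With CCl4 it was at 46.17, 41.27, 47.31 and 35.46 FPKM in the same order. The difference between the DKO effects, taken against the other 3 genotypes, was 1.87 ± 0.24 (SE, adjusted p = 0.0471 by limma over all tested genes) on the log2(FPKM + 1) scale. Among the 161 tested pathway genes this was the one that passed in that fit, against 0.29% of all genes. At 8 months the same difference was 1.68, with an adjusted p of 0.0850 (limma).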

How the results depend on the processing

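No paired analysis was possible because each group has 1 column, so the replicate numbers of the titles cannot be used. The DKO difference of Apoc2 ran from 1.36 to 1.74 and that of Apom from -1.64 to -1.25 over 21 alternatives and the fit as reported. The CCl4 differences ran from 3.30 to 4.24 for Apoa4, 1.90 to 2.21 for Apoc2, 1.36 to 1.64 for Apom and 0.45 to 0.66 for Apob over 18 fits. These ranges describe the estimates and are no test. Of the pathway genes in DKO against WT, 0 passed without the 2-month columns, 0 without the 8-month columns, 1 without the CCl4 columns and 0 with the WT and DKO columns alone, and leaving out single columns gave 1 to 4. At 8 months 10 passed with no filter on low values and 2 without the CCl4 columns, and leaving out single columns gave 4 to 18. The cause was not tested. With CCl4 the leave-one-out counts were 75 to 96. The additive fit has few residual degrees of freedom, and the unknown depth limits low genes such as Ezh1 and Ezh2.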
